A study of Medicago ruthenica with 9 samples.

Results

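ZAT proteins are plant transcription factors of the C2H2 zinc finger family, and the transcripts described here are the 16 unigenes of a Medicago ruthenica leaf transcriptome that carry a ZAT name and pass a filter on low values. A unigene was included where the Name in the deposited annotation started with ZAT and at least 3 libraries reached 1 TPM, a unit in which abundance is divided by transcript length and scaled to a common library total. The members were thus chosen by their Name and selected on measured TPM values, without regard to the group of the libraries. Of 52457 unigenes, 17 had such a Name, and 1 of these was under the filter. The filter kept 44538 unigenes in all, and p-values were adjusted over them unless another filter is named or TPM was summed by Name.

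Medicago ruthenica is a perennial forage legume. Leaf RNA was sequenced in 3 groups of 3 libraries, all from plants that were 4 weeks old when the treatments began and were grown 8 to a pot. RW plants received no water for 15 days and were harvested 2 days after watering resumed. DS plants received no water for 15 days, when relative soil moisture was 20%, and were harvested on that day. CK plants were watered every 3 days, kept over 80% relative soil moisture and were harvested together with DS, so RW leaves were taken 2 days later than the leaves of both other groups. The study describes the 3 libraries of a group as biological replicates, without saying whether they came from separate pots, and the p-values cover the variation among these 9 libraries.

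In Arabidopsis, ZAT proteins bind DNA through C2H2 zinc fingers and repress transcription through a short EAR motif near the carboxyl end, which recruits TOPLESS co-repressors and histone deacetylases. ZAT6, ZAT10, ZAT11 and ZAT12 are known in that species as early responders to drought, salt, cold or oxidative stress, and ZAT6 and ZAT10 are phosphorylated by stress-activated MAP kinases. The Names used here are those of the closest SwissProt proteins, so they give the nearest named relative and not a proven counterpart.

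The 16 unigenes carried 5 Names, with 6 called ZAT11, 4 called ZAT5, and 2 each called ZAT6, ZAT9 and ZAT4. A Pfam match to the plant-type C2H2 finger (zf-C2H2_6) was listed for 15 of them, the exception being ZAT11 DN12053_c0_g1, and all 16 carried a Gene Ontology term for transcription factor activity. The term for response to chitin was attached to 6 unigenes, those named ZAT11. Lengths ran from 209 to 1294 bp, and 4 unigenes were 300 bp or shorter. The number in the Name differed from that in the protein description for 3 unigenes. ZAT6 DN19592_c0_g3 was described as ZAT10, ZAT11 DN12053_c0_g1 as ZAT12-like and ZAT4 DN23295_c1_g3 as ZAT9. Some unigenes shared the DN number of their assembly identifier, namely both ZAT6 unigenes, and the trio of ZAT11 DN22373_c1_g2, ZAT11 DN22373_c0_g2 and ZAT5 DN22373_c0_g3. Both ZAT6 unigenes also shared the c number, while ZAT11 DN22373_c1_g2 differed from the rest of its trio in it. Copies or alleles that share reads cannot be separated from TPM.

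The libraries summed to between 994748 and 996266 TPM, a common total that does not keep the number of reads behind each value, and no counting interval was computed. RW replicate 2 stood apart, with 3618 unigenes at 5 TPM or above there whose level in the remaining 8 libraries was below 0.5 TPM throughout, against at most 166 such unigenes in any other library. Leaf mesophyll markers (39 unigenes, none at 0 in all libraries) summed to 60878 to 84324 TPM in RW, 36835 to 99882 TPM in DS and 70110 to 95719 TPM in CK, so the labelled tissue carried its markers in every library. The lowest of these sums was that of DS replicate 2. Xylem markers (34 unigenes) summed to 196 to 652 TPM in RW, 106 to 317 TPM in DS and 516 to 1506 TPM in CK, and the 1 root nodule marker unigene lay between 0.3 and 2.8 TPM. In whole leaves, fewer cells of a type and less RNA per cell cannot be told apart.

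The abundance of ZAT transcripts in these leaves rested on a few unigenes. The 16 unigenes summed to between 86.3 and 164 TPM in RW, between 776 and 1640 TPM in DS and between 79.9 and 121 TPM in CK. DS libraries lay far above those of both other groups. Both ZAT6 unigenes and ZAT11 DN22373_c1_g2 made 67.7% to 71.5% of the sum in RW, 93.8% to 94.7% in DS and 47.9% to 58.7% in CK. The other 13 unigenes together held 27.9 to 47.9 TPM in RW, 48.6 to 87.8 TPM in DS and 41.7 to 50.8 TPM in CK, so that RW and CK overlapped in this remainder and DS overlapped with CK.

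**Figure D1:**
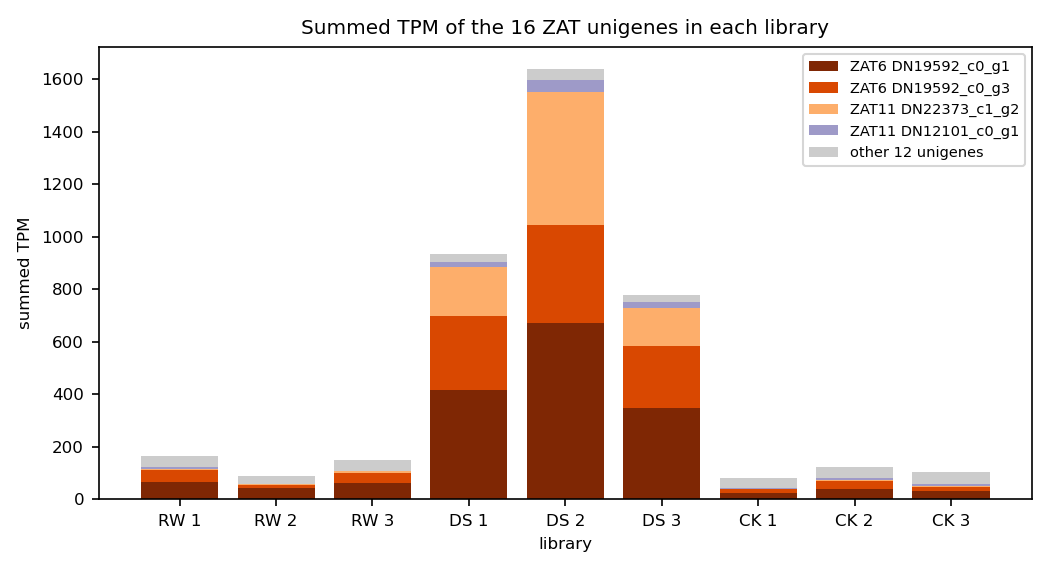
Summed TPM of the 16 ZAT unigenes (y axis, linear from 0) in each of the 9 libraries (x axis), stacked by unigene. The DS bars stand between 776 and 1640 TPM, against at most 164 TPM in RW and at most 121 TPM in CK, and most of their height is both ZAT6 unigenes and ZAT11 DN22373_c1_g2.

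The comparison DS vs. CK asked which transcripts differed after 15 days without water, and RW vs. DS which differed after water was returned. A unigene was called a DEG at an adjusted p under 0.05 (limma on log2(TPM + 1), Benjamini-Hochberg) together with a log2 fold change of more than 1 in either direction. In DS vs. CK, 4 of the 16 ZAT unigenes were higher and 0 were lower, against 2.39% higher and 2.57% lower among all tested unigenes (4.96% in either direction), and 8 ZAT unigenes had an unadjusted p under 0.05 in either direction (20.6% of all). In RW vs. DS, 5 were lower and 0 were higher, against 2.15% lower and 1.79% higher among all tested unigenes (3.94% in either direction), and 6 had an unadjusted p under 0.05 (18.3% of all). In RW vs. CK, limma called 0 of the 16 in either direction, and only 1 of the 44538 tested unigenes (0.00225%). The DS libraries enter both DS vs. CK and RW vs. DS, so these counts are not independent of each other. Among the 8 are ZAT11 DN18812_c0_g2, ZAT5 DN22373_c0_g3 and ZAT5 DN23420_c2_g3, which passed the filter only through the group in which they were high. The called unigenes were both named ZAT6 and 3 named ZAT11, while none of the 8 named ZAT5, ZAT9 or ZAT4 was called in any comparison.

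ZAT6 DN19592_c0_g1 (952 bp) was the most abundant ZAT transcript in every group. It is related to a protein known in Arabidopsis for roles in root growth, phosphate balance and abiotic stress. It had 63.5, 41.2 and 60.6 TPM in RW replicates 1, 2 and 3, against 417, 669.7 and 346 TPM in DS replicates 1, 2 and 3, and 22.7, 38.5 and 29.3 TPM in CK replicates 1, 2 and 3. All DS libraries were above all others, DS replicate 2 was the highest, and every RW library was still above every CK library. Means were 55.1 ± 12.1 TPM in RW, 477 ± 170.3 TPM in DS and 30.1 ± 7.93 TPM in CK (SD, n = 3 libraries each). The DS mean was 15.8 times that of CK, with a log2 fold change of 3.92 in DS vs. CK (SE 0.30, limma adjusted p = 0.000148). In RW vs. DS it was −3.06 (SE 0.30, limma adjusted p = 0.000616). The RW mean was 1.83 times that of CK, but the log2 fold change of 0.86 in RW vs. CK (SE 0.30) did not pass the adjustment over all unigenes (limma adjusted p = 0.745).

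ZAT6 DN19592_c0_g3 (1294 bp), the longest of the 16 and described as ZAT10, an Arabidopsis repressor also known as salt tolerance zinc finger, had the same order of groups at lower levels. It had 47.0, 13.2 and 40.2 TPM in RW replicates 1, 2 and 3, against 282, 375 and 238 TPM in DS and 14.8, 29.2 and 18.4 TPM in CK. DS lay apart from both other groups, while RW and CK overlapped because RW replicate 2 was under every CK library. The log2 fold change was 3.81 in DS vs. CK (SE 0.44, limma adjusted p = 0.00156), −3.28 in RW vs. DS (SE 0.44, limma adjusted p = 0.00363) and 0.53 in RW vs. CK (SE 0.44, limma adjusted p = 0.877). The DS mean was 14.4 times that of CK and 8.92 times that of RW.

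ZAT11 DN22373_c1_g2 (701 bp) had the largest fold change of the 16 in both comparisons with DS. In Arabidopsis, ZAT11 is known for early induction by oxidative stress. The unigene had 5.8, 4.06 and 4.55 TPM in RW replicates 1, 2 and 3, against 185, 507 and 144 TPM in DS and 0.77, 3.67 and 3.62 TPM in CK. No DS library came near the others, DS replicate 2 was the highest, and the RW libraries all lay just above the CK libraries. The DS mean of 279 ± 199 TPM was 104 times the CK mean of 2.69 ± 1.66 TPM and 58.0 times the RW mean of 4.80 ± 0.897 TPM (SD, n = 3 libraries each). The log2 fold change was 6.15 in DS vs. CK (SE 0.50, limma adjusted p = 0.000214) and −5.37 in RW vs. DS (SE 0.50, limma adjusted p = 0.000478). In RW vs. CK it was 0.77 (SE 0.50, limma adjusted p = 0.847).

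These 3 unigenes kept their calls in DS vs. CK and in RW vs. DS in every alternative run, each library left out included. Without DS replicate 2, the library with the lowest mesophyll marker sum, the log2 fold changes in DS vs. CK were 3.64 for ZAT6 DN19592_c0_g1, 3.63 for ZAT6 DN19592_c0_g3 and 5.60 for ZAT11 DN22373_c1_g2. Without RW replicate 2 those in RW vs. DS were −2.87 for ZAT6 DN19592_c0_g1, −2.73 for ZAT6 DN19592_c0_g3 and −5.28 for ZAT11 DN22373_c1_g2. DS replicate 2 was the highest DS library for 9 of the 16 ZAT unigenes, and RW replicate 2 the lowest RW library for 10 of them. The part of these libraries' marker levels and library-specific unigenes in that order was not tested.

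**Figure D2:**
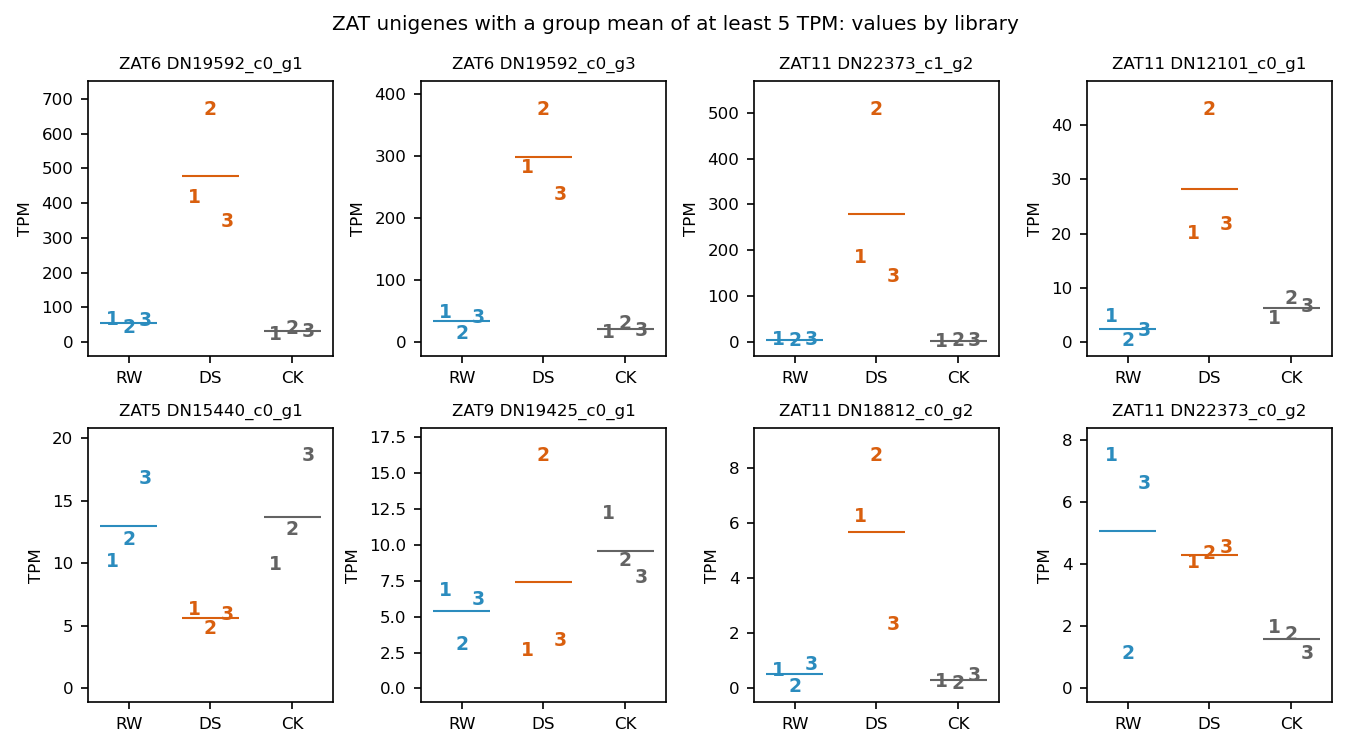
TPM (y axis, linear, a scale of its own in each panel) of the 8 ZAT unigenes that reached a group mean of 5 TPM, by group (x axis). Digits are the replicate numbers of single libraries and lines are group means (n = 3). DS stands apart for both ZAT6 unigenes and ZAT11 DN22373_c1_g2, DN12101_c0_g1 and DN18812_c0_g2, while ZAT5 DN15440_c0_g1 is lowest in DS.

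ZAT11 DN12101_c0_g1 (611 bp) differed from the other called unigenes in its level after rewatering, which was below that of CK. It had 4.65, 0.3 and 2.19 TPM in RW replicates 1, 2 and 3, against 20.1, 42.9 and 21.7 TPM in DS and 4.42, 7.98 and 6.53 TPM in CK. DS did not overlap with either other group, and RW overlapped with CK only through RW replicate 1. In RW vs. DS the log2 fold change was −3.27 (SE 0.52, limma adjusted p = 0.00786), and the call held with each library left out. In DS vs. CK it was 1.95 (SE 0.52), which just missed the threshold (limma adjusted p = 0.0627) although the DS mean was 4.47 times that of CK. That comparison passed without RW replicate 1 (limma adjusted p = 0.0415) or RW replicate 2 (0.0218), which are not among the libraries compared. It also passed after scaling by median of ratios (log2 fold change 2.12, adjusted p = 0.0418) or quantile normalization (2.07, adjusted p = 0.0398). Without any 1 of the DS or CK libraries it failed. The adjusted p then lay between 0.105 (without DS replicate 1) and 0.189 (without DS replicate 2), the highest of all alternatives. Of 20 settings, the main one included, 8 gave a call. The RW mean was 0.377 times that of CK, and the log2 fold change of −1.32 in RW vs. CK (SE 0.52) did not pass the adjustment (limma adjusted p = 0.745).

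ZAT11 DN18812_c0_g2 (568 bp) reached 1 TPM in DS libraries only, so it entered the set through the group in which it was high, and its difference is a description of how it was chosen. It had 0.64, 0.08 and 0.88 TPM in RW replicates 1, 2 and 3, against 6.23, 8.42 and 2.3 TPM in DS and 0.24, 0.17 and 0.48 TPM in CK. DS replicate 3 was far below the other DS libraries but above all RW and CK libraries. The fitted log2 fold changes were 2.24 in DS vs. CK (SE 0.45, limma adjusted p = 0.0220) and −2.03 in RW vs. DS (SE 0.45, limma adjusted p = 0.0363). Both calls hung on single libraries. In DS vs. CK the adjusted p was 0.0768 without DS replicate 1, 0.0849 without DS replicate 2, 0.0606 without CK replicate 1, 0.0723 without CK replicate 2 and 0.0658 without CK replicate 3. In RW vs. DS the call held only without DS replicate 3 (adjusted p = 0.0170), and without any of the other 8 libraries in turn the adjusted p lay between 0.0560 and 0.127. With the unigene set aside, 3 ZAT unigenes were higher in DS vs. CK and 4 were lower in RW vs. DS.

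**Figure D3:**
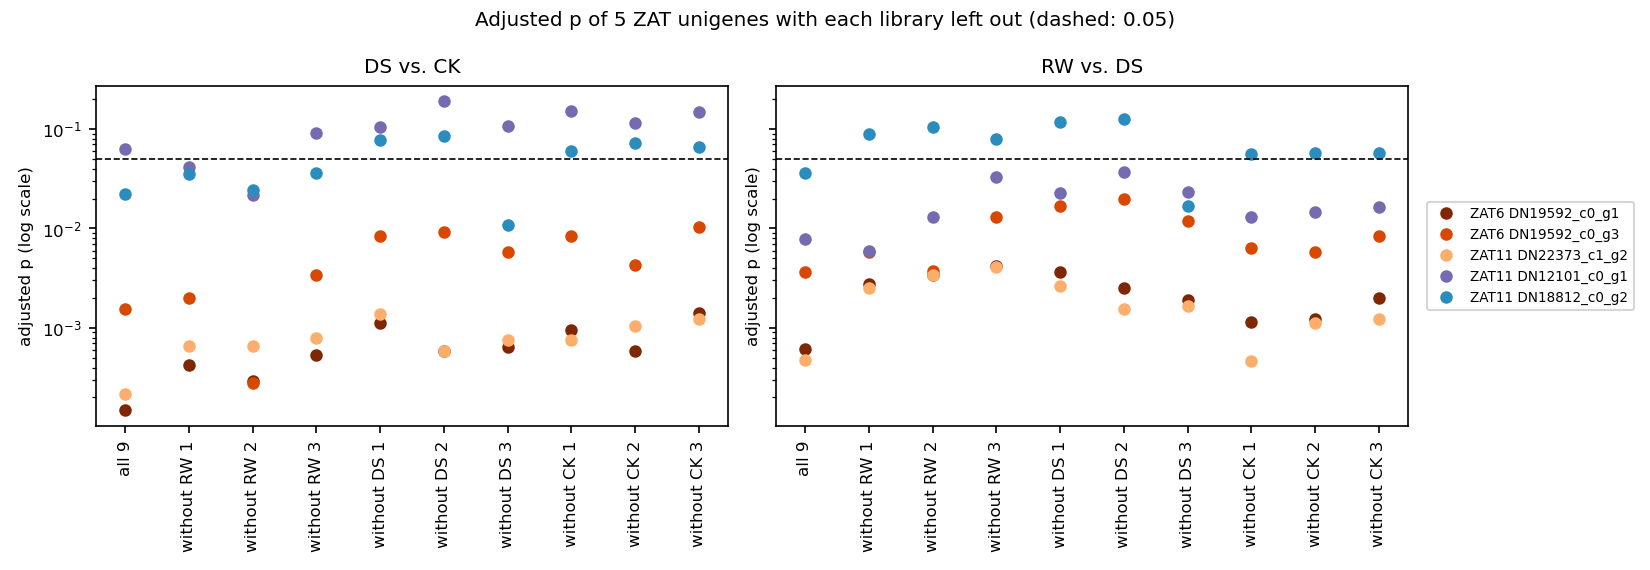
Adjusted p (y axis, log scale) of the 5 called ZAT unigenes in DS vs. CK and in RW vs. DS with all 9 libraries and with each library left out (x axis). Both ZAT6 unigenes and ZAT11 DN22373_c1_g2 stay under the dashed line at 0.05 throughout, while ZAT11 DN18812_c0_g2 crosses it in both panels and ZAT11 DN12101_c0_g1 in DS vs. CK.

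The 5 called unigenes correlated with each other over the 9 libraries to unequal degree. Pearson's r of log2(TPM + 1) was 0.991 between ZAT6 DN19592_c0_g1 and ZAT11 DN22373_c1_g2 and 0.981 between the ZAT6 unigenes. ZAT11 DN12101_c0_g1 had the lowest values, between 0.793 with ZAT6 DN19592_c0_g1 and 0.859 with ZAT6 DN19592_c0_g3. These r describe 9 libraries in which all 5 were higher in DS than in CK, and the points share their libraries.

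Among 9733 other unigenes (9734 for ZAT11 DN18812_c0_g2) with a protein description and a group mean of at least 20 TPM, those with the pattern most like ZAT11 DN22373_c1_g2 were a DURF2 unigene (DN15362_c0_g3, a RING-type ubiquitin ligase, r = 0.995), GATL9 (DN18777_c0_g3, a galacturonosyltransferase-like protein, r = 0.995) and PUB21 (DN15238_c0_g1, a U-box ubiquitin ligase, r = 0.991). ZAT6 DN19592_c0_g1 and another DURF2 unigene (DN15362_c0_g2, r = 0.990) completed its nearest 5. GATL9 was also among the nearest 5 of ZAT6 DN19592_c0_g1 (r = 0.992) and of ZAT6 DN19592_c0_g3 (r = 0.986). ZAT6 DN19592_c0_g1 was further close to a hypothetical protein (DN14898_c1_g6, r = 0.993), BPS1 (DN20638_c0_g1, r = 0.992), ZAT11 DN22373_c1_g2 and the transcription factor gene WRKY53 (DN22281_c0_g1, r = 0.990). For ZAT6 DN19592_c0_g3 the nearest was MKP1 (DN14488_c0_g1, a MAP kinase phosphatase by its Name, r = 0.991), ahead of AGP16 (DN12749_c0_g1, r = 0.989), At1g76660 (DN25682_c0_g1, r = 0.988), GATL9 and an L-ascorbate oxidase (DN14217_c0_g4, r = 0.986). ZAT11 DN12101_c0_g1 had other neighbours, a bHLH factor (DN25283_c0_g3, r = 0.975), MYB306 (DN16103_c0_g2, r = 0.969), an unknown protein (DN12519_c0_g2, r = 0.966), the JAZ-type jasmonate repressor TIFY6B (DN19620_c0_g3, r = 0.962) and the ethylene response factor ERF1A (DN22924_c0_g2, r = 0.960). Those of ZAT11 DN18812_c0_g2 were an uncharacterized protein (DN19339_c1_g5, r = 0.990), PUB20 (DN15238_c0_g2, r = 0.985), DNAJ1 (DN24211_c0_g1, r = 0.979), UGT75L6 (DN16444_c0_g7, r = 0.979) and ATL57 (DN15551_c0_g4, r = 0.979). All of these r are over 9 libraries, and the pattern was one peak in DS.

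The 4 ZAT5 unigenes did not share the DS peak. ZAT5 DN15440_c0_g1 (1008 bp), the most abundant of them, had 10.2, 11.9 and 16.8 TPM in RW replicates 1, 2 and 3, against 6.29, 4.79 and 5.91 TPM in DS and 9.88, 12.7 and 18.6 TPM in CK. DS was below both other groups with no overlap, and RW and CK overlapped nearly completely. Means were 12.9 ± 3.44 TPM in RW, 5.66 ± 0.780 TPM in DS and 13.7 ± 4.44 TPM in CK (SD, n = 3 libraries each). The log2 fold changes of −1.11 in DS vs. CK (SE 0.28, limma adjusted p = 0.0552) and 1.04 in RW vs. DS (SE 0.28, limma adjusted p = 0.0781) were beyond 1 in size but missed the threshold. With the filter at 5 TPM in 3 libraries, which leaves fewer unigenes to adjust over, both passed (adjusted p = 0.0364 and 0.0498).

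ZAT5 DN22373_c0_g3 and ZAT5 DN23420_c2_g3 were low in RW as well as in DS. The first (770 bp) had 0.53, 0.27 and 0.95 TPM in RW replicates 1, 2 and 3, against 0.32, 1.11 and 0.37 TPM in DS and 1.58, 4.05 and 1.84 TPM in CK. The other (523 bp) had 0.73, 0.18 and 0.5 TPM in RW, against 0.14, 1.04 and 0.25 TPM in DS and 1.51, 1.84 and 2.04 TPM in CK. For both, every CK library was above every RW and DS library. Only the CK libraries and DS replicate 2 reached 1 TPM, so both unigenes passed the filter only through CK, the group in which they were high. Their difference from CK is thus a description of how they were chosen. No change of either passed the adjustment, with log2 fold changes of −1.10 in RW vs. CK (SE 0.40, limma adjusted p = 0.745) and −1.09 in DS vs. CK (SE 0.40, limma adjusted p = 0.160) for ZAT5 DN22373_c0_g3. For ZAT5 DN23420_c2_g3 they were −0.94 in RW vs. CK (SE 0.38, limma adjusted p = 0.745) and −0.97 in DS vs. CK (SE 0.38, limma adjusted p = 0.184). ZAT5 DN11898_c0_g1 (963 bp) had 5.04, 3.14 and 4.03 TPM in RW, against 3.49, 2.72 and 5.5 TPM in DS and 3.63, 1.18 and 1.77 TPM in CK, and its groups overlapped in all 3 comparisons.

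Unigenes that shared the DN number of ZAT11 DN22373_c1_g2 had quite different values. ZAT11 DN22373_c0_g2 (603 bp) had 7.48, 1.13 and 6.59 TPM in RW replicates 1, 2 and 3, against 4.04, 4.34 and 4.54 TPM in DS and 1.96, 1.74 and 1.11 TPM in CK. DS was above CK in every library, and RW was above DS in replicates 1 and 3 but within the CK range in replicate 2. The log2 fold change was 1.04 in DS vs. CK (SE 0.50, limma adjusted p = 0.279), −0.04 in RW vs. DS and 1.001 in RW vs. CK (SE 0.50, limma adjusted p = 0.796). Without RW replicate 2, RW vs. CK was 1.64, still not called. The ZAT5 unigene with the same DN number, DN22373_c0_g3, passed the filter only through CK and lay below CK in both other groups.

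ZAT9 DN19425_c0_g1 (1198 bp), assembled as 7 transcripts, had 6.83, 3.04 and 6.21 TPM in RW replicates 1, 2 and 3, against 2.61, 16.2 and 3.36 TPM in DS and 12.2, 8.9 and 7.7 TPM in CK. DS replicate 2 was the highest of the 9 libraries while the other DS libraries were below all of CK, and RW was below CK with no overlap. The log2 fold change was −0.69 in DS vs. CK with all libraries (SE 0.55, limma adjusted p = 0.532) and −1.39 without DS replicate 2 (adjusted p = 0.103). In RW vs. CK it was −0.77 (SE 0.55, limma adjusted p = 0.858).

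Of the uncalled unigenes, 8 stayed under a mean of 5 TPM in every group, and their single libraries lay between 0 and 5.5 TPM. They were the 3 low ZAT5 unigenes given above and 5 whose groups overlapped in all 3 comparisons. These included ZAT11 DN12053_c0_g1 (526 bp, 0.98 to 3.51 TPM in RW, 1.71 to 4.38 TPM in DS and 2.03 to 4.79 TPM in CK) and ZAT11 DN10452_c0_g1 (270 bp, 0.82 to 2.42 TPM in RW, 0 to 1.39 TPM in DS and 0.87 to 2.27 TPM in CK). The others are the short ZAT9 DN6196_c0_g1 (209 bp), ZAT4 DN23295_c1_g3 (267 bp) and ZAT4 DN9051_c0_g3 (234 bp). ZAT9 DN6196_c0_g1 reached at most 1.08 TPM in RW, 2.49 TPM in DS and 4.04 TPM in CK. ZAT4 DN23295_c1_g3 reached at most 4.03 TPM in RW, 2.06 TPM in DS and 2.37 TPM in CK. ZAT4 DN9051_c0_g3 lay just inside the filter, with 3 libraries at 1.06 TPM or more, and was listed at 0 in 4 libraries. The ZAT-named unigene just outside it, ZAT11 DN26561_c0_g1, had only 2 libraries at 1 TPM or more and the next at 0.97 TPM.

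**Figure D4:**
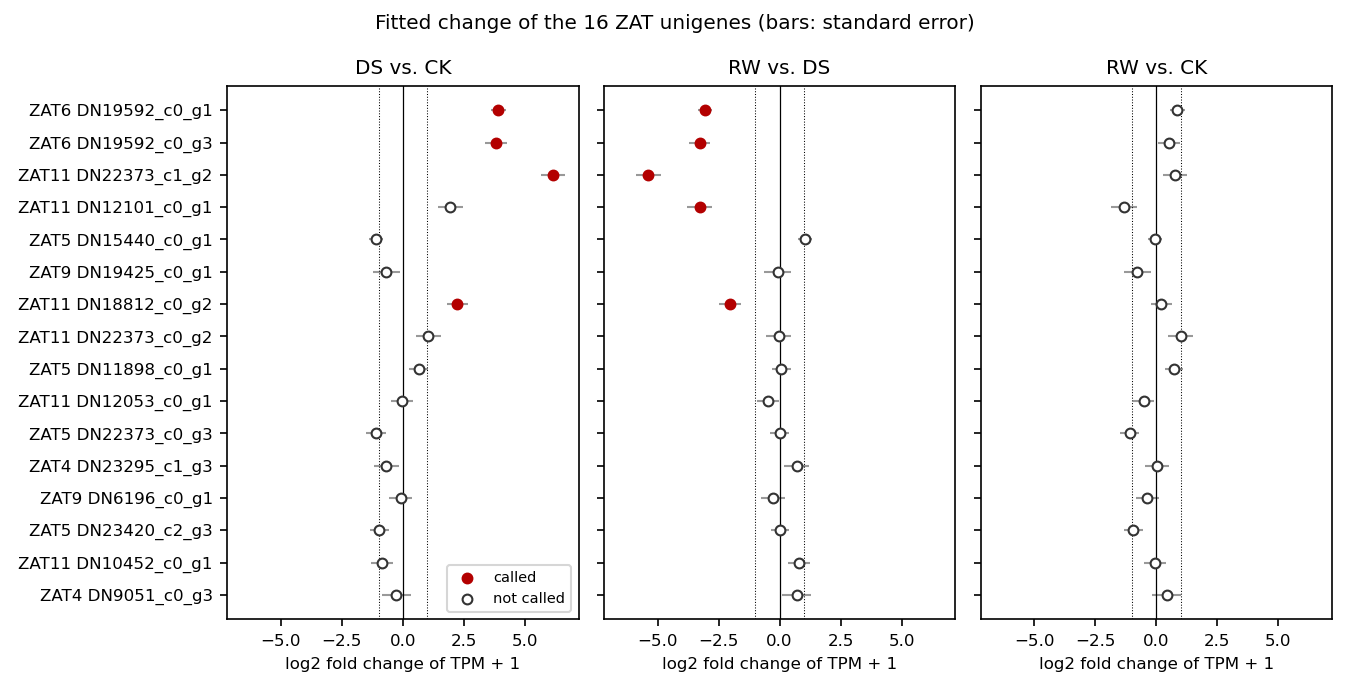
Log2 fold change of TPM + 1 (x axis) of the 16 ZAT unigenes (y axis, ordered by their highest group mean) in DS vs. CK, RW vs. DS and RW vs. CK, with the standard error as bars. Filled points are called (adjusted p under 0.05 and beyond the dotted lines at 1 in size). Points far from 0 lie to the right in DS vs. CK and to the left in RW vs. DS, and no point is filled in RW vs. CK.

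Counted by libraries alone, 6 of the 16 ZAT unigenes had every DS library above every CK library, against 8.86% of all tested unigenes, and 3 had every DS library below, against 18.1%. For RW vs. DS these counts were 1 above (15.7% of all) and 5 below (8.01%). ZAT11 DN18812_c0_g2, selected through its DS libraries, is among the 6 and among the 5, and without it 5 were above in DS vs. CK and 4 below in RW vs. DS. For RW vs. CK, 2 were above (5.35%) and 3 below (6.44%), and 4 of the 16 had an unadjusted limma p under 0.05, against 6.5% of all. Those 4 were ZAT6 DN19592_c0_g1, which was higher in RW, and ZAT11 DN12101_c0_g1, ZAT5 DN22373_c0_g3 and ZAT5 DN23420_c2_g3, which were lower. Both of these ZAT5 unigenes passed the filter only through their CK libraries. They are also among the 3 with DS below CK and among the 3 with RW below CK. The median log2 fold change of the 16 was −0.06 in RW vs. DS, −0.07 in DS vs. CK and −0.02 in RW vs. CK, beside 0.17, −0.19 and −0.02 over all tested unigenes. With each library left out it ran from −0.28 (without RW replicate 1) to 0.16 (without RW replicate 2) in RW vs. DS and from −0.24 (without CK replicate 1) to 0.29 (without CK replicate 2) in DS vs. CK, so neither median had a stable sign. The sign of the DS vs. CK median also turned with scaling, to 0.05 with values scaled by median of ratios and 0.15 with quantile-normalized values, where the median of all unigenes was −0.05 and −0.04.

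With TPM summed by Name, ZAT11 and ZAT6 were called and ZAT5, ZAT9 and ZAT4 were not. ZAT11 was at a log2 fold change of 4.11 in DS vs. CK (SE 0.48, limma adjusted p = 0.00165) and −4.12 in RW vs. DS (SE 0.48, limma adjusted p = 0.00172). ZAT6 was at 3.90 (SE 0.34, limma adjusted p = 0.000294) and −3.14 (SE 0.34, limma adjusted p = 0.00112). ZAT5 was at −0.85 in DS vs. CK (SE 0.22, limma adjusted p = 0.0579) and 0.70 in RW vs. DS (SE 0.22, limma adjusted p = 0.125). In DS replicates 1, 2 and 3, ZAT11 DN22373_c1_g2 alone made 185, 507 and 144 of the 221, 566 and 174 TPM summed as ZAT11. That sum includes ZAT11 DN18812_c0_g2, which passed the filter only through DS. The ZAT5 sum includes ZAT5 DN22373_c0_g3 and ZAT5 DN23420_c2_g3, which passed only through CK.

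Close relatives with other names were matched by description. Of 7 tested unigenes of the EAR type (AZF1 and unnamed ones described as ZAT), 1 was higher in DS vs. CK and lower in RW vs. DS, beside 2.39% and 2.15% of all tested unigenes. Their median log2 fold change was −1.12 in DS vs. CK. That median was −0.69 without CK replicate 1, and without RW replicate 3 an unnamed member (DN1110_c0_g1) was also called lower. With all libraries the median was the value of DN9051_c0_g1 (231 bp), which lay at 0 to 2.7 TPM. This unigene, DN9051_c0_g2 (253 bp) and DN1110_c0_g1 (223 bp) had no Pfam match and reached 1 TPM in RW and CK only. They thus passed the filter through the groups in which they were high. The called one, AZF1 DN21966_c1_g1, is described as ZAT10 and had 2.21, 11.2 and 2.42 TPM in RW replicates 1, 2 and 3, against 72.1, 268 and 70.9 TPM in DS and 0.65, 1.88 and 1.07 TPM in CK. The groups did not overlap, and as for ZAT11 DN22373_c1_g2 DS replicate 2 was the highest library. Its log2 fold change was 5.71 in DS vs. CK (SE 0.62, limma adjusted p = 0.00108) and −4.45 in RW vs. DS (SE 0.62, limma adjusted p = 0.00429). AZF1 DN19592_c0_g2, with the DN and c numbers of the ZAT6 unigenes, had 0.93 to 9.1 TPM in RW, 0 to 11.9 TPM in DS and 1.19 to 5.55 TPM in CK and did not share their DS peak. Of 27 other C2H2 zinc finger unigenes, 0 were higher and 2 were lower in DS vs. CK, beside 2.39% and 2.57% of all tested unigenes. The count lower was 1 without RW replicate 3, DS replicate 1 or DS replicate 3 and 0 without DS replicate 2 or without any 1 of the CK libraries. None of the 27 was higher at an unadjusted p under 0.05 with the same minimum fold.

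Proteins that act with or next to ZAT proteins were matched in the same way. Of 17 unigenes for EAR co-repressors (TOPLESS and its relatives, histone deacetylases, SAP18), limma called 0 in each of the 3 comparisons, and also 0 at an unadjusted p under 0.05 with the same minimum fold. Their median log2 fold change in DS vs. CK was −0.22 (−0.37 to −0.10 with each library left out), beside −0.19 over all unigenes, and −0.04 with median-of-ratios scaling, beside −0.05. Of 20 MAP kinase unigenes, 1 was higher and 1 was lower in DS vs. CK, beside 2.39% and 2.57% of all tested unigenes. The median log2 fold change of the 20 in DS vs. CK was −0.10 (−0.19 to 0.08 with each library left out), beside −0.19 over all unigenes. The higher one was MPK3 DN20652_c0_g2, at 67.8, 35.5 and 57.4 TPM in RW, against 169, 286 and 263 TPM in DS and 42.3, 60.3 and 42.2 TPM in CK. Its log2 fold change in DS vs. CK was 2.27 (SE 0.30, limma adjusted p = 0.00282). MPK3 is a stress-activated kinase that phosphorylates ZAT10 in Arabidopsis, and a link of this unigene to ZAT transcripts was not tested. Of 7 ascorbate peroxidase unigenes and 14 NADPH oxidase unigenes, limma called 0 in all 3 comparisons. Without the adjustment, 1 NADPH oxidase unigene and 0 ascorbate peroxidase unigenes passed in DS vs. CK.

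Of 7 DREB1/CBF unigenes, cold and drought regulators whose expression ZAT12 dampens in Arabidopsis, 3 were higher in DS vs. CK and 4 were lower in RW vs. DS. Among all tested unigenes these shares were 2.39% and 2.15%. In RW vs. DS, 2 were lower without RW replicate 1 or without any 1 of the DS libraries, and 3 without any 1 of the other libraries. Without RW replicate 1, 1 was also higher. Of 21 heat stress factor unigenes, 3 were higher and 2 were lower in DS vs. CK, beside 2.39% and 2.57% of all tested unigenes. The count higher was 1 without DS replicate 1, DS replicate 3 or CK replicate 2 and 0 without DS replicate 2, CK replicate 1 or CK replicate 3. In RW vs. CK limma called 0 unigenes in each of these lists, and without the adjustment 1 other C2H2 unigene and 1 DREB1/CBF unigene passed.

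**Figure D5:**
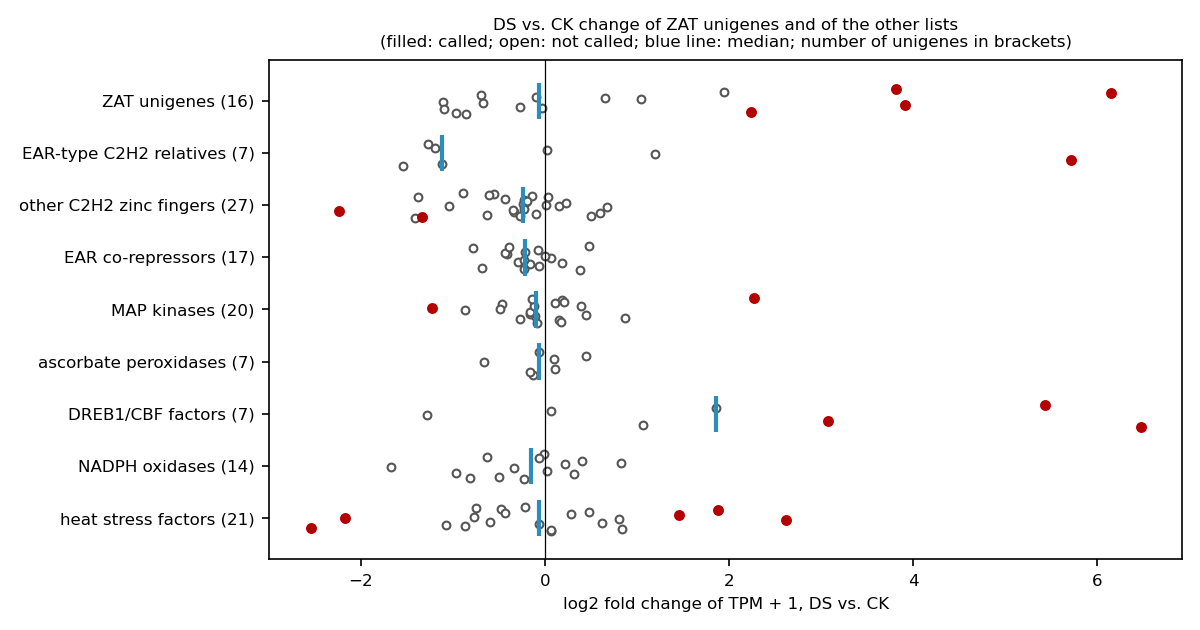
Log2 fold change of TPM + 1 in DS vs. CK (x axis) of the single unigenes of each list (rows, number of unigenes in brackets), with the list's median as a blue line and called unigenes filled. ZAT unigenes have 4 filled points to the right and a median of −0.07, and the EAR-type relatives have 1 filled point, AZF1 DN21966_c1_g1 at 5.71.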

How the data were processed

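The authors trimmed reads with Cutadapt and in-house scripts, assembled them de novo with Trinity, kept the longest transcript of each cluster as the unigene and estimated abundance with Salmon. The submitters' processing notes list HISAT2 2.0 as well as StringTie 1.3.0 without saying what either did. The deposited values are TPM per library, beside the unigene length in bp and annotation. Read counts were not used here, so limma 3.58.1 with statmod 1.5.0 in R 4.3.3 replaced a count model. Unigenes at 1 TPM or more in at least 3 libraries were tested on log2(TPM + 1), with the means of the 3 groups fitted jointly to the 9 libraries (6 residual and 3.54 prior df, trend and robust options). Calls needed a Benjamini-Hochberg adjusted p (two-sided, over 44538 unigenes) under 0.05 and a log2 fold change of more than 1 in either direction. Adding 1 shrinks the fold changes of low unigenes. With 3 libraries against 3, exact permutation could reach no p below 0.1, so the p-values come from limma's model. TPM keeps no depth.

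The members, lists and tests were chosen with earlier results of these data known. All 16 members are named, those called or at a group mean of 5 TPM with every library. Lists were matched by Name and description, and 4 NTF2 and 1 CBF5 unigenes that the patterns had matched wrongly were left out after values were seen. Alternatives were other pseudocounts (0.1 and 5), other filters, calls without p adjustment or without a minimum fold, fits of a pair's 6 libraries alone, a replicate block, scaling by median of ratios or quantiles, Name-wise TPM sums and each library left out. The fit was tested on simulated data of 44538 genes with changes planted at a mean of at least 5 TPM.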

Additional observations from a re-analysis of the deposited data

Results flagged for a closer look

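ZAT11 DN26561_c0_g1 (574 bp) was outside the comparisons because only 2 libraries reached 1 TPM, and it is given here because its DS level was above that of CK in data not tested. It had 0.08, 0.97 and 0.33 TPM in RW replicates 1, 2 and 3, against 1.08, 3.1 and 0.97 TPM in DS and 0.7, 0.08 and 0.59 TPM in CK. The DS mean was 1.72 TPM. Every DS library was above every CK library, and DS replicate 3 and RW replicate 2 were level.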

How the results depend on the processing

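The calls of both ZAT6 unigenes and ZAT11 DN22373_c1_g2 in DS vs. CK and RW vs. DS, and that of ZAT11 DN12101_c0_g1 in RW vs. DS, were kept in every alternative, and no value changed its sign where called. The count higher in DS vs. CK lay between 3 and 5 with each library left out, and that lower in RW vs. DS between 4 and 5, while the count lower in DS vs. CK, the count higher in RW vs. DS and both counts in RW vs. CK stayed at 0. With the filter at 5 TPM, 1 unigene was higher in RW vs. DS and 1 lower in DS vs. CK. With an unadjusted p, 1 was higher in RW vs. DS, 2 were lower in DS vs. CK and 2 were lower in RW vs. CK. ZAT5 DN22373_c0_g3, which passed the filter only through CK, is among the lower ones in both. Summed by Name, 2 Names were lower in RW vs. DS and 2 higher in DS vs. CK. With the replicate number as a block, 3 were higher in DS vs. CK and 4 lower in RW vs. DS, and ZAT11 DN18812_c0_g2 lost both calls (adjusted p = 0.0568 and 0.0843). Deviations of same-numbered libraries correlated at −0.09 to 0.06, and those of other pairs of libraries from different groups at −0.08 to 0.09. The labels give replicate numbers only, so whether same-numbered libraries shared a pot or batch is not known. A pseudocount of 5 took ZAT11 DN18812_c0_g2 to a log2 fold change of 0.96 in DS vs. CK (adjusted p = 0.0348) and −0.90 in RW vs. DS (adjusted p = 0.0506). In the simulation, 12% of log2 changes of 1, 58% of 2 and 80% of 3 were recovered for DS vs. CK, and 12%, 66% and 80% for RW vs. CK. A missing call for a change near 1 thus says little. Each size was planted in 50 genes per comparison, while in the data limma called 2209 unigenes in DS vs. CK and 1 in RW vs. CK. The adjusted p of a unigene depends on how many others change, so the shares recovered in the data may differ from the simulated ones. Changes were planted only at a mean of at least 5 TPM, so these shares do not cover ZAT unigenes at lower levels, for which a missing call of a larger change was not assessed.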
